A study of Mus musculus with 143 samples.

Results

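The genes examined were 8 subunits of the GABA-A receptor, Gabra2, Gabra3, Gabra4, Gabra5, Gabrb1, Gabrb2, Gabrd and Gabrg1, taken by name from a table of read counts for 41128 genes in mouse striatum. All 8 had counts in every library and were tested in every comparison. The study asked how striatal gene expression in zQ175 mice, which model Huntington disease, responds to an siRNA against huntingtin. Its 143 libraries, 1 per mouse, form 18 groups: wild type (WT) or zQ175 mice that were untreated, given a non-targeting control siRNA (NTC) or given the siRNA HTT-10150, under each of 3 treatment strategies. In the strategy 2[4]6 mice were treated at 2 months and the striatum was collected at 6 months. In 6[4]10 mice were treated at 6 months and collected at 10 months, and in 2+6[8]10 mice were treated at both 2 and 6 months and collected at 10 months. A group held 8 mice, 4 female and 4 male, except the WT HTT-10150 group of 2+6[8]10 with 7 mice, 2 female and 5 male. The zQ175 allele is a knock-in of an expanded CAG repeat into the mouse huntingtin gene, present in every cell. Zygosity, strain background, dose and route of the siRNA are not given in the labels.

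GABA-A receptors are chloride channels opened by GABA, the transmitter of the medium spiny neurons that make up most of the striatum. Each receptor is a ring of subunits that usually combines alpha and beta subunits with a gamma or a delta subunit. The alpha2 subunit is common at striatal synapses. The delta subunit, often paired with alpha4, forms receptors outside the synapse that carry the slow tonic current, and alpha5 receptors are also largely extrasynaptic.

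In GRCm38 coordinates, 4 of the 8 genes lie in 1 cluster: Gabrg1 at chr5:70751047-70842617, Gabra2 at chr5:70957597-71095849 and Gabra4 at chr5:71569749-71658308 on the minus strand, and Gabrb1 at chr5:71658113-72149037 on the plus strand. Htt is on the same chromosome at chr5:34761740-34912534, between 35.8 and 36.7 megabases from these genes. Gabra4 and Gabrb1 start head to head and overlap at their first exons. Whether counting used strand is not given, so reads from the overlap cannot be told apart. The others are single loci: Gabra5 at chr7:57407672-57510059, Gabrb2 at chr11:42419757-42629028, Gabrd at chr4:155384980-155398112 and Gabra3 at chrX:72432681-72656848.

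Upstream sequence from RefSeq (GRCm38.p6) was held for 7 of the 8 genes, Gabrd being the one without an entry. The stretches just before the start of 4 genes are printed because 3 of them lie in the chromosome 5 cluster yet differ in expression, while Gabra5 moved in the opposite direction to Gabra2 and Gabra4. All 4 are given 5′ to 3′ on the strand of the gene. Capitals mark a GC box (GGGCGG) or a CCAAT box (CCAAT), read on either strand; neither motif contains the other.
Gabra2: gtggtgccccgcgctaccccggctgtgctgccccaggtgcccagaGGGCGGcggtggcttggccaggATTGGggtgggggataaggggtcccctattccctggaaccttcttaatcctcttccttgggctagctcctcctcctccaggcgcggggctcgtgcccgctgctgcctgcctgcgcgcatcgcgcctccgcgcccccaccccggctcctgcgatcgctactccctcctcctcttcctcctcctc
Gabra4: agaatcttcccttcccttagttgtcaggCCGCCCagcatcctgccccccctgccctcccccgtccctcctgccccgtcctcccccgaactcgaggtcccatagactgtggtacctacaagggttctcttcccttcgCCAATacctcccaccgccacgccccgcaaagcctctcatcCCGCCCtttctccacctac
Gabrg1: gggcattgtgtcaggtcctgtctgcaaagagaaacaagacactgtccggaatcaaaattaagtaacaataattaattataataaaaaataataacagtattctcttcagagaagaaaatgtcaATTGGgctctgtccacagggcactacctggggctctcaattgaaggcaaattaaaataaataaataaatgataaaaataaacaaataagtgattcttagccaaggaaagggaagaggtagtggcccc
Gabra5: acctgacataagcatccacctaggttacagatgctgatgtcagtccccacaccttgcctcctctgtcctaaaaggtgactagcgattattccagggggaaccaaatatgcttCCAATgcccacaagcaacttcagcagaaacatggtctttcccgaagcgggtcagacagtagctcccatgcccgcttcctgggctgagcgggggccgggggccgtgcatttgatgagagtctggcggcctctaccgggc

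The Gabra2 stretch (chr5:71095850-71096099) was 70% G and C with 18 CpG sites, and held a GC box 205 bases and a CCAAT box 183 bases before the start. The Gabra4 stretch (chr5:71658364-71658558) is the exon-free end of a 250-base window that runs into the first exon of Gabrb1. That window was 61.2% G and C with 12 CpG sites, with GC boxes 222 and 74 bases and a CCAAT box 114 bases before the start. The Gabrg1 stretch (chr5:70842618-70842867) was AT-rich, with 35.6% G and C, 1 CpG site and a CCAAT box at 127 bases. The Gabra5 stretch (chr7:57510060-57510309) had 56.4% G and C, 9 CpG sites and a CCAAT box at 138 bases. Over 32851 windows of the same length the median was 52.4% G and C (quartiles 45.2% and 61.2%) with 6 CpG sites; 32.7% of windows held a GC box and 33.8% a CCAAT box. A TATA box (TATAAA, in 12.4% of windows), a cAMP response element core (TGACG, 17.8%) and an E-box (CACGTG, 6.02%) were also searched, and none of these letters occurred in the 4 windows.

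The libraries held 12551675 to 29194369 counts (median 18850267). Counts per library ranged from 206 for the lowest Gabra5 value to 5253 for the highest Gabra4 value, so all 8 genes were well above the counting floor. Levels are given below in CPM, the count relative to the library's total after scaling by the TMM method; differences are log2 fold changes from edgeR's quasi-likelihood test with a term for sex, and a gene was called to have risen or fallen when its p-value, adjusted across every tested gene by Benjamini-Hochberg, was under 0.05. The siRNA target Htt fell from NTC to HTT-10150 with adjusted p under that limit only in 2+6[8]10, by 0.36 in zQ175 (adjusted p = 0.00035) and by 0.49 in WT (adjusted p = 5e-06), by edgeR. Its log2 fold changes in 2[4]6 were -0.01 in zQ175 and -0.26 in WT, and in 6[4]10 -0.32 and -0.34. Every library matched its labelled sex.

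To set the genes against each other, the second deposited table was used, whose values are per transcript length and sum to the same total in each library, as values in TPM do. In untreated WT mice of 2[4]6, Gabrd stood highest at 154.3 ± 9.39 TPM (SD, n = 8), followed by Gabra4 at 98.1 ± 4.89 and Gabrb2 at 50.7 ± 2.53. The ranges of these 3 genes did not overlap each other or those of the other genes. Gabra2 (24.7 ± 3.42), Gabra3 (24.5 ± 4.82), Gabra5 (18.8 ± 2.28), Gabrb1 (17.7 ± 2.08) and Gabrg1 (13.03 ± 1.61) followed, and in this lower part each gene overlapped its neighbours in the order. The first 5 places were the same in untreated WT mice of all 3 strategies, while Gabra5 and Gabrb1 exchanged places. The 8 genes together summed to 401.8 ± 12.5 TPM in untreated WT mice and 365.9 ± 19.9 TPM in untreated zQ175 mice of 2[4]6. Gabrd made up 38.4% ± 2.42 of that sum in WT and 28.4% ± 1.34 in zQ175 (n = 8 each), and the shares in 6[4]10 (41.6% and 31.7%) and 2+6[8]10 (37.1% and 27.9%) were also lower in zQ175.

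Gabrd, the delta subunit, was lower in zQ175 than in WT in every strategy and under every treatment. The 2 genotypes did not overlap in any of the 9 pairs of groups. How many of all genes were apart in this way is not given here, so the separation only describes Gabrd. Over all groups the 71 WT libraries had a lowest value of 116 CPM, a median of 144.7 and a highest of 169.9, against 55.91, 88.19 and 102.2 in the 72 zQ175 libraries. In untreated mice of 2[4]6 the values were 135.1, 141 and 155.9 CPM in WT and 87.39, 90.26 and 93.18 in zQ175. No zQ175 mouse of the study therefore reached the level of the lowest WT mouse. The fitted level in zQ175 was 0.5677 to 0.6262 of that in WT. In untreated mice Gabrd fell by 0.68 ± 0.05 (SE) on the log2 scale in 2[4]6, by 0.69 ± 0.07 in 6[4]10 and by 0.70 ± 0.04 in 2+6[8]10 (edgeR adjusted p = 7.2e-16, 5.2e-11 and 4.5e-20). Under NTC it fell by 0.68, 0.76 and 0.82 and under HTT-10150 by 0.70, 0.79 and 0.72 in the same order.

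Gabra4, the alpha subunit most often joined with delta, differed by less: it passed the test in 8 of 9 comparisons, with log2 fold changes from -0.28 to -0.11. Under HTT-10150 in 2+6[8]10 the WT values were 166.3, 181.3 and 188.5 CPM (lowest, median, highest) and the zQ175 values 129.7, 148.5 and 172.8. The groups overlapped here by 1 zQ175 mouse, the highest. They were fully apart only under NTC in the same strategy, at 171.5 to 187.6 CPM in WT and 143.9 to 165.1 in zQ175. The untreated difference was -0.20 ± 0.07 in 2[4]6 (edgeR adjusted p = 0.022), -0.11 ± 0.05 in 6[4]10 (adjusted p = 0.11) and -0.24 ± 0.04 in 2+6[8]10 (adjusted p = 4.2e-06). Several of these calls were lost with fewer mice. In untreated 2[4]6 mice the fold change hardly moved without the mice numbered 1, 2 or 3 (-0.20, -0.21 and -0.19), while the edgeR adjusted p rose to 0.052, 0.084 and 0.094. Under HTT-10150 in 2[4]6 the call was also lost with no filter (adjusted p = 0.075), no sex term (0.055), only the groups compared (0.14) and without the mice numbered 2 (0.055), 3 (0.17) or 4, where the difference was -0.08 (adjusted p = 0.27). Under NTC in 6[4]10 it was lost without the mice numbered 1 or 4 (adjusted p = 0.072 each).

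**Figure D1:**
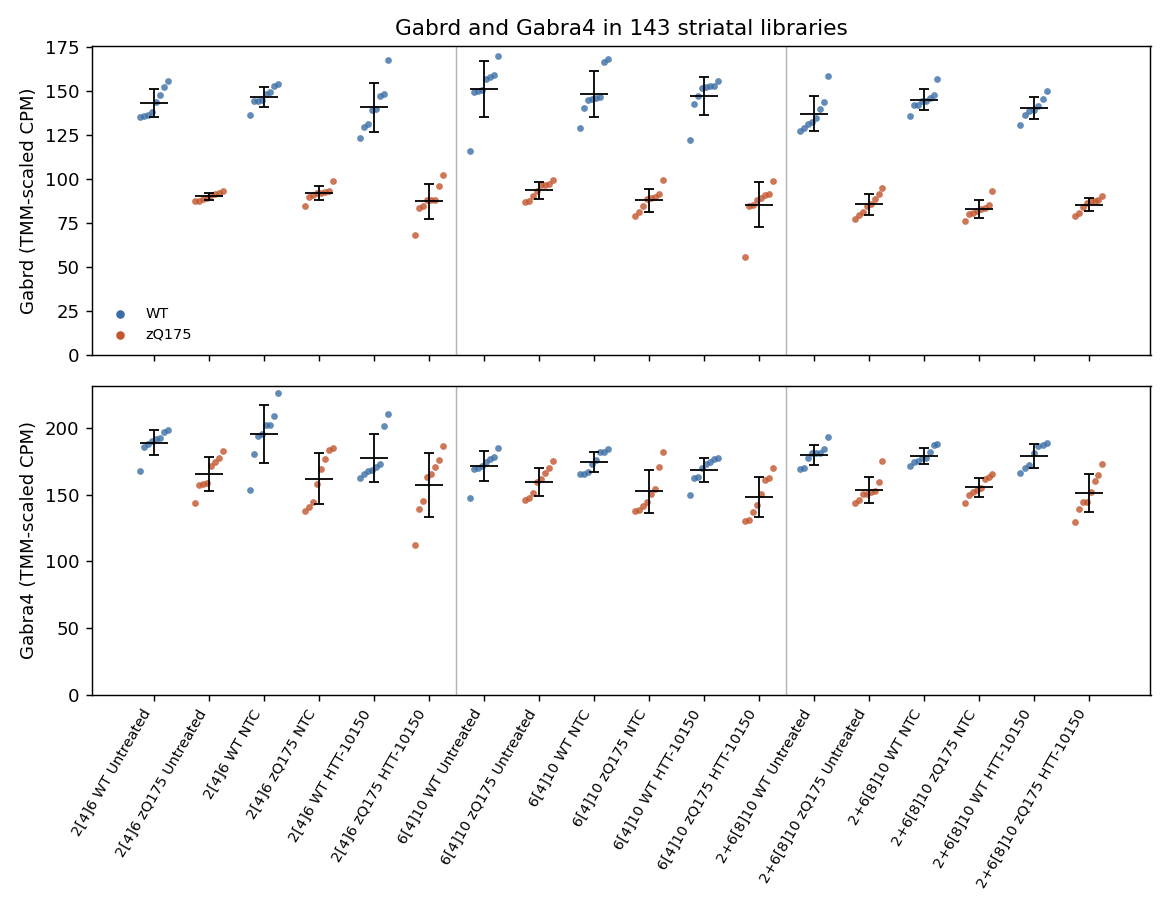
Levels of Gabrd (top) and Gabra4 (bottom) in CPM after TMM scaling, for every library in the 18 groups; points are mice and bars the mean ± SD of 8 mice (7 in WT HTT-10150 of 2+6[8]10). For Gabrd every zQ175 mouse lies at 102.2 or lower and every WT mouse at 116 or higher, whereas the Gabra4 groups overlap in all pairs but NTC in 2+6[8]10.

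The 8 genes split by direction, and the calls have to be read against the many genes that differed between genotypes. In untreated mice, 1 of the 8 rose and 2 fell in 2[4]6, 1 rose and 2 fell in 6[4]10, and 1 rose and 3 fell in 2+6[8]10. Of all genes tested 15.3%, 19.2% and 17.1% rose and 17.2%, 17% and 18.3% fell in these comparisons. Under NTC the members that rose and fell were 0 and 2, 1 and 2, and 4 and 3, against 15.9%, 16.8% and 20.7% of all genes rising and 18.5%, 15.9% and 21.4% falling. Under HTT-10150 they were 1 and 2, 1 and 3, and 1 and 4, against 16.1%, 17.8% and 17.5% rising and 17.4%, 16.9% and 18.7% falling. The median log2 fold change of the 8 genes in untreated mice was 0.07, -0.07 and -0.04, beside 0.00, 0.01 and 0.00 over all genes tested. In sum, 34 of the 72 comparisons of a member between genotypes were called, 23 of them lower and 11 higher in zQ175, and Gabrd alone gave 9. The library names also carry a number whose meaning is not given. Almost every such number held mice of a single genotype, so genotype and that grouping cannot be fully told apart.

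**Figure D2:**
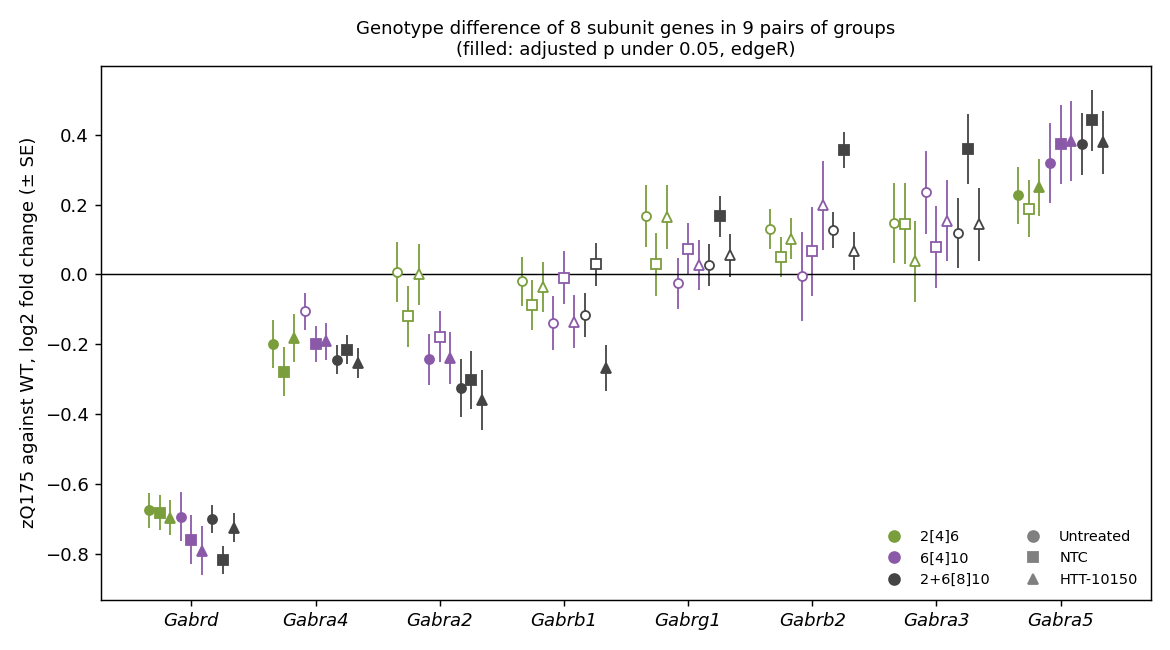
Log2 fold change of zQ175 against WT with its standard error for each of the 8 genes in the 9 pairs of groups (3 strategies, 3 treatments); filled points passed the edgeR test at an adjusted p under 0.05. Gabrd lies between -0.82 and -0.68 throughout, Gabra4 between -0.28 and -0.11, and Gabra5 between 0.19 and 0.44.

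Gabra2, the synaptic alpha subunit, was called lower in zQ175 in 5 of the 6 comparisons of 6[4]10 and 2+6[8]10 and in 0 of the 3 of 2[4]6, where 0 lay under 0.05 before adjustment and DESeq2 called 0. Each library's slopes on transcript length and GC content (described further on) were also used as covariates, an alternative chosen after seeing the data. The NTC comparison of 2[4]6 then passed too, at -0.19 (edgeR adjusted p = 0.011). All 9 log2 fold changes were then negative, from -0.50 to -0.13, those of 2[4]6 included. In untreated 2[4]6 mice the median GC slope was lower in zQ175 than in WT. Between mice of 2[4]6 Gabra2 correlated with the GC slope at r = -0.667. The NTC call of 2[4]6 thus depended on the setting, while in untreated 2[4]6 mice Gabra2 was not called with or without the slopes. The part of the GC slope in the Gabra2 difference was not tested. In 6[4]10 the untreated call was lost without the mice numbered 4, at -0.16 (edgeR adjusted p = 0.19), and the HTT-10150 call without those numbered 1 or 4 (adjusted p = 0.063 and 0.059). In untreated 2+6[8]10 mice the WT values were 25.77, 30.13 and 36.38 CPM and the zQ175 values 20.2, 24.68 and 32.18, and the groups overlapped, as they did in all 9 pairs. The untreated log2 fold changes were 0.01 ± 0.09 in 2[4]6, -0.24 ± 0.07 in 6[4]10 (edgeR adjusted p = 0.0074) and -0.32 ± 0.08 in 2+6[8]10 (adjusted p = 0.0016). The difference between strategies was itself tested and did not pass: the genotype effect in 6[4]10 less that in 2[4]6 was -0.26 ± 0.12 (edgeR adjusted p = 0.25), and in 2+6[8]10 less that in 2[4]6 -0.33 ± 0.12 (adjusted p = 0.26). None of the 8 genes passed this test between any 2 strategies, whereas 2 of the 24 lay under 0.05 before adjustment and DESeq2 called 0; over all genes edgeR called 0.835% between 6[4]10 and 2[4]6, 0.0675% between 2+6[8]10 and 2[4]6 and 0.0123% between the 10-month strategies.

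Gabra5, the extrasynaptic alpha5 subunit, went the other way, rising in 8 of 9 comparisons. In untreated mice the WT values were 17.62, 23.2 and 29.05 CPM in 2[4]6 and 16.14, 18.45 and 22.52 in 2+6[8]10. The zQ175 values were 24.09, 27.19 and 32.09 in 2[4]6 and 20.1, 24.63 and 30.12 in 2+6[8]10. The genotypes overlapped in 8 of the 9 pairs and were apart only under HTT-10150 in 2+6[8]10, at 17.4 to 22.75 CPM in WT and 23.13 to 28.68 in zQ175. In untreated mice Gabra5 rose by 0.23 ± 0.08 in 2[4]6 (edgeR adjusted p = 0.026), 0.32 ± 0.11 in 6[4]10 (adjusted p = 0.025) and 0.37 ± 0.09 in 2+6[8]10 (adjusted p = 0.00067). The NTC comparison in 2[4]6, at 0.19 ± 0.08, missed the threshold (adjusted p = 0.065). Calls of single comparisons were lost with fewer mice. Without the mice numbered 2 the untreated 2[4]6 difference was 0.13 (edgeR adjusted p = 0.34), and without those numbered 3 it was 0.26 (adjusted p = 0.063). The untreated 6[4]10 difference was 0.31, 0.29 and 0.23 without the mice numbered 1, 3 and 4 (adjusted p = 0.092, 0.085 and 0.14). The NTC call in 6[4]10 was lost without number 1 (adjusted p = 0.064) and the HTT-10150 call in 2[4]6 without number 2 or 3 (0.064 and 0.087). With the slopes on length and GC content as covariates 5 of 9 comparisons passed, all of them higher. Gabra5 is also expressed in cortex, and the summed level of 10 cortical excitatory neuron markers was 143.9 to 476 TPM in WT (median 191.3) and 159.7 to 520.9 in zQ175 (median 210.4), with none at 0. With that level as a covariate Gabra5 rose in 9 of 9 comparisons. The part of cortical tissue in the Gabra5 difference was not tested.

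Gabra3, the X-linked alpha3 subunit, lay higher in zQ175 in all 9 comparisons but passed the test in 1, NTC in 2+6[8]10. There the WT values were 31.42, 35.83 and 41.17 CPM and the zQ175 values 39.29, 43.58 and 63.7, and the log2 fold change was 0.36 ± 0.10 (edgeR adjusted p = 0.0034). The groups overlapped, and the highest zQ175 mouse stood well above the rest. With the cortical marker level as a covariate, 3 of 9 comparisons passed, and with the length and GC slopes the lowest of the 9 log2 fold changes was -0.04.

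The beta subunits, which complete the GABA binding site, and gamma1 each passed in 1 comparison of 9, all in 2+6[8]10. Gabrb1 fell under HTT-10150 by 0.27 ± 0.07 (edgeR adjusted p = 0.00086), with 25.24, 27.78 and 32.82 CPM in WT and 21.02, 23.69 and 26.36 in zQ175. Gabrb2 rose under NTC by 0.36 ± 0.05 (adjusted p = 1.9e-07), with 75.34, 87.74 and 93.35 CPM in WT and 100.4, 113.8 and 118.9 in zQ175. Gabrg1 rose under NTC by 0.17 ± 0.06 (adjusted p = 0.022), with 23.98, 28.6 and 30.89 CPM in WT and 29.28, 31.73 and 33.76 in zQ175. The Gabrb2 groups did not overlap, whereas those of Gabrb1 and Gabrg1 did. In untreated mice of 2+6[8]10 the same 3 genes differed by -0.12, 0.13 and 0.03, none past the threshold in edgeR. Gabrb2 lay close to it, and was called there with RLE size factors (adjusted p = 0.049), the cortical covariate (0.039), the slopes (0.026) and without the mice numbered 3 (0.026), and Gabrb1 was called with the slopes at -0.14 (0.02). The Gabrg1 difference under NTC was 0.10 with the slopes (edgeR adjusted p = 0.21), 0.16 without the mice numbered 1 (0.066) and 0.14 without those numbered 3 (0.12). Over the 9 comparisons, Gabrb1 was called lower in 4, Gabrb2 higher in 4 and Gabrg1 in 0 with the slopes. With only the groups compared the calls were 1, 3 and 2. Without the 3 libraries of lowest length slope, Gabrb2 rose under HTT-10150 in 6[4]10 by 0.19 ± 0.07 (edgeR adjusted p = 0.018). In these settings the calls were thus not confined to 2+6[8]10.

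The lower Gabrd level was accompanied by lower levels of the genes that mark medium spiny neurons. All 15 markers on a list of these neurons, Drd1, Drd2 and Penk among them, fell in all 9 genotype comparisons, with a median log2 fold change of -0.81, -0.69 and -0.81 in untreated mice of 2[4]6, 6[4]10 and 2+6[8]10. Their summed level was 8590 to 12940 TPM in WT (median 10680) and 3761 to 7037 in zQ175 (median 6183), and no marker was at 0. In bulk tissue fewer cells of a type and less RNA per cell cannot be told apart, so this holds for each subunit as well. Their part in the difference of Gabrd was not tested.

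Between mice of the same group and sex, Gabrd followed these markers. Over the 143 mice, with the mean of each group and sex removed, the log2 level of Gabrd correlated with the mean of the 15 markers at Pearson r = 0.772 (Spearman rho = 0.645; each adjusted p = 7.2e-05, permutation test, the smallest that 100000 permutations can give after adjustment over 72 relations). Without the 2 mice farthest from the median marker level r was 0.716, and within 2[4]6, 6[4]10 and 2+6[8]10 it was 0.85, 0.783 and 0.577. Gabra4 correlated with the markers at r = 0.555 (rho = 0.512) and at 0.564 without 2 mice, with the same adjusted p. Gabra3 ran against them, at r = -0.701 (rho = -0.744), and at -0.729 without 2 mice.

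Gabra3 and Gabra5 instead followed markers of other neurons. Gabra3 correlated with 12 striatal interneuron markers at r = 0.682 (rho = 0.68), with the 10 cortical markers at 0.663 (rho = 0.627) and with 6 thalamic markers at 0.599 (rho = 0.645). Gabra5 correlated with the interneuron markers at 0.507 (rho = 0.511), with the cortical markers at 0.561 (rho = 0.547) and with 10 oligodendrocyte markers at -0.524 (rho = -0.471). Each of these passed with an adjusted p of 7.2e-05 in the permutation test for both coefficients. Without 2 mice the values were 0.663, 0.641 and 0.626 for Gabra3 and 0.486, 0.53 and -0.495 for Gabra5. With the thalamic markers Gabra5 did not pass, at r = 0.164 (adjusted p = 0.2, permutation test). Gabrd and Gabra4 ran against those markers, at r = -0.586 and -0.415 (adjusted p = 7.2e-05 and 0.00039, permutation test). In all, 14 of the 72 relations of a member with a marker list passed, 7 of them positive.

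Among themselves the 8 genes fell into loose sets. Of 28 pairs 18 passed for Pearson's r, 14 of them positive. Gabra2 and Gabra4, neighbours on chromosome 5, correlated at r = 0.554 (rho = 0.582), Gabra3 and Gabra5 at 0.551 (rho = 0.529) and Gabrb1 and Gabrb2 at 0.525 (rho = 0.429). Gabrd ran against Gabra3 at -0.497 (rho = -0.445). The adjusted p of r was 5.6e-05 for each of these 4 pairs by permutation, and without 2 mice r was 0.545, 0.522, 0.455 and -0.471. Gabra2 and Gabra4 each followed the slope of gene levels on GC content, a measure of library composition, as closely as they followed each other, at r = -0.554 (rho = -0.559) and -0.596 (rho = -0.538), each with an adjusted permutation p of 2.7e-05 for r, and at -0.558 and -0.601 without 2 mice. Gabrg1 and Gabrb1 followed it at r = -0.561 and -0.424 with the same adjusted p. The part of that slope in the correlation of Gabra2 with Gabra4 was not tested. All values share the scaling of their library, so a gene that takes more of the counts lowers the others.

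**Figure D3:**
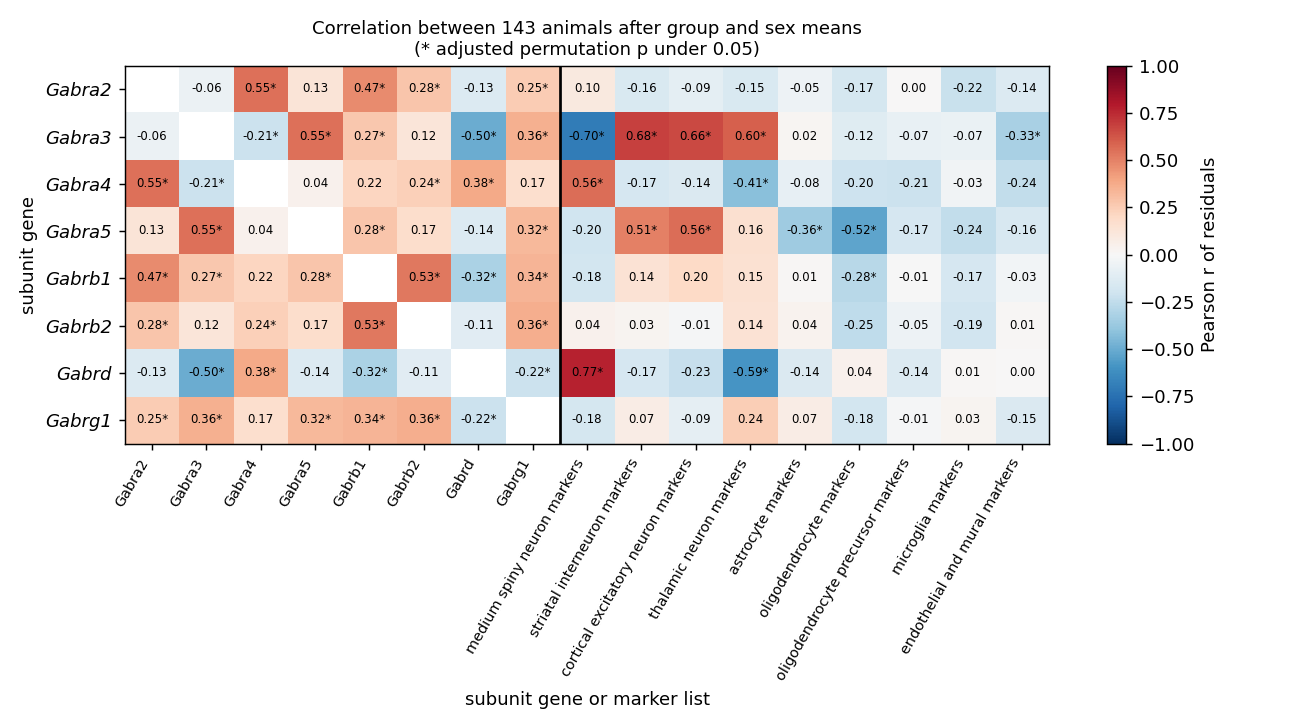
Pearson r between mice, after the mean of each group and sex was removed, of each of the 8 genes (rows) with each other and with the mean level of 9 marker lists (columns), over 143 mice; red is positive, blue negative, and a star marks an adjusted permutation p under 0.05. Gabrd and Gabra4 are red and Gabra3 blue against the medium spiny neuron markers, at 0.772, 0.555 and -0.701.

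Over the 18 group means, the genes most like each member were named by Pearson r among 13124 genes, as a description. For Gabrd these were Rgs9 (r = 0.9975), a regulator of G protein signalling on the marker list of medium spiny neurons, and Inf2 (0.9973), a formin. For Gabra4 they were Klhl2 (0.9849) and Snw1 (0.979), and for Gabra2 Unc13c (0.9446), a synaptic vesicle priming protein, and Dlx6os1 (0.9428). For Gabra5 they were Sprn (0.9744) and Usp22 (0.9729), and for Gabra3 Camk2d (0.958), a calmodulin-dependent kinase, and A830082K12Rik (0.9456). Gabrb1 was most like Gucy1a2 (0.9689), a guanylate cyclase subunit, and Fzd3 (0.955), a Wnt receptor. Gabrb2 was most like Alg10b (0.9727) and Ckap5 (0.9725). Gabrg1 had the weakest likeness, with Usp6nl (0.9158) and Klhl32 (0.9038).

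The siRNA left 7 of the 8 genes without a call. Over the 12 comparisons of HTT-10150 with NTC and of NTC with untreated mice, 1 of 96 member tests passed; before adjustment 5 lay under 0.05, and DESeq2 called 2. The log2 fold changes lay between -0.31 and 0.16, with standard errors of 0.04 to 0.13. Gabrd differed between HTT-10150 and NTC in zQ175 by -0.07 ± 0.05, -0.04 ± 0.07 and 0.05 ± 0.04 in 2[4]6, 6[4]10 and 2+6[8]10. The zQ175 level of Gabrd thus stayed below the lowest WT mouse under every treatment.

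The 1 call was Gabrb2 in zQ175 mice of 2+6[8]10, which fell from NTC to HTT-10150 by 0.31 ± 0.05 (edgeR adjusted p = 0.00044). The values were 100.4, 113.8 and 118.9 CPM under NTC, 78.64, 91.37 and 95.55 under HTT-10150 and 82.47, 105.5 and 121.4 in untreated mice. The NTC and HTT-10150 groups did not overlap, and the untreated group spanned nearly all of both. Gabrb1 missed the threshold there, at -0.19 ± 0.06 (adjusted p = 0.069), but was called at -0.20 both with the number in the library names as a block (adjusted p = 0.035) and with DESeq2 (adjusted p = 0.034). The effect of HTT-10150 in zQ175 less that in WT was -0.29 ± 0.08 for Gabrb2 (edgeR adjusted p = 0.057) and -0.30 ± 0.09 for Gabrb1 (adjusted p = 0.11). No member passed that test in any strategy by edgeR; before adjustment 2 of 24 lay under 0.05, and DESeq2 called 1.

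Read composition moved with this call. For each library the slope of all gene levels on transcript length was computed, in units of its SD over the 143 libraries; it was 0.143 to 1.99 under NTC (median 0.899) and -1.49 to 0.649 under HTT-10150 (median -0.519) in these zQ175 mice. Between mice of the same group and sex Gabrb2 correlated with that slope at r = 0.732 (rho = 0.561, adjusted p = 2.7e-05 for r, permutation test) and at 0.596 without 2 mice, and Gabrb1 at 0.563 (rho = 0.504) and 0.544. Within strategies the values for Gabrb2 were 0.516, 0.851 and 0.514. With the slopes on length and on GC content as covariates, an alternative chosen after seeing the data, Gabrb2 differed by -0.18 ± 0.05 (edgeR adjusted p = 0.12) and was no longer called.

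**Figure D4:**
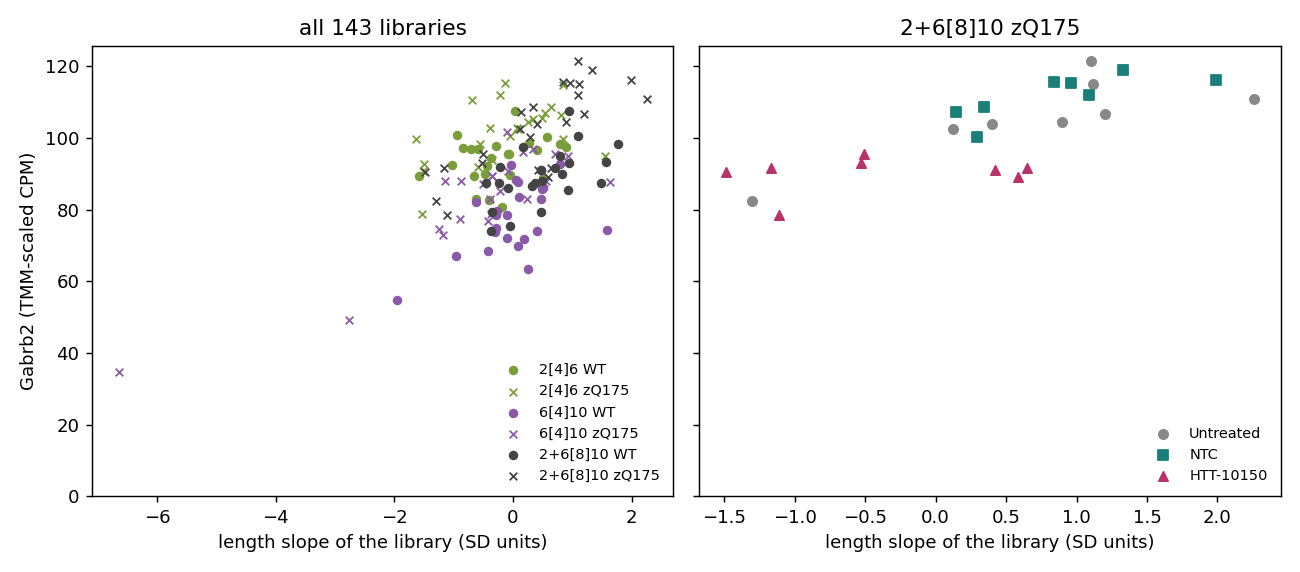
Gabrb2 in CPM against the slope of gene levels on transcript length, in SD units, for all 143 libraries (left) and for the zQ175 mice of 2+6[8]10 by treatment (right). The 3 libraries of lowest slope are also the 3 of lowest Gabrb2, at 34.65, 49.28 and 54.74, and on the right the HTT-10150 mice lie lower on both axes than most NTC mice.

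Across the whole table few genes answered the siRNA. In zQ175, HTT-10150 against NTC called 0% of genes in 2[4]6, 0% in 6[4]10 and 3.16% in 2+6[8]10, and in WT 0.00636%, 0% and 0.0129%. NTC against untreated called 0%, 0% and 0% in zQ175 and 0%, 0% and 0.181% in WT. An HTT-10150 effect that differed by genotype was called for 0%, 0% and 0.529% of genes. These counts moved with the mice included: in 2+6[8]10 HTT-10150 against NTC in zQ175 called 490 genes and 70 to 278 without the mice numbered 1, 2, 3 or 4, the difference by genotype 82 and 0 without number 2 or 4, and NTC against untreated in WT 28 and 4 without number 1 or 2. In the comparisons at 0%, between 316 and 1167 genes had an unadjusted p under 0.05 in edgeR, and DESeq2 called 0.

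Gabra2 was the member with the largest sex difference in 2[4]6. In 2[4]6 the 24 females had 23.73, 30.21 and 37.34 CPM and the 24 males 21.16, 25.33 and 31.3, with overlap, and males were lower by a log2 fold change of -0.28 ± 0.05 (edgeR adjusted p = 0.00015). In the other strategies it was -0.14 ± 0.04 (adjusted p = 0.057) in 6[4]10 and -0.08 (adjusted p = 0.47) in 2+6[8]10; a difference of the sex effect between strategies was not tested. Gabra4 was also lower in males of 2[4]6, with a log2 fold change of -0.12 ± 0.04 (adjusted p = 0.032), a call lost without the filter (0.072) and without the mice numbered 2 (0.21) or 3, where it was -0.08 (0.39). Thus 2 of 8 members were called in 2[4]6, where 16.6% of all genes were, and 0 in 6[4]10 (2.21% of genes) and in 2+6[8]10 (2.1%), counts of 2614, 348 and 325 genes that were 478, 44 and 85 without the mice numbered 2, 1 and 2; before adjustment 1 member lay under 0.05 in each of these, and DESeq2 called 1 and 0. The median slope of gene levels on GC content in 2[4]6 was -0.8 in females and 0.51 in males. With both slopes as covariates Gabra2 remained called at -0.16 ± 0.04 (edgeR adjusted p = 0.0092) while Gabra4 stood at -0.05 (adjusted p = 0.47). In 2[4]6 the lower numbers in the library names were mostly of females and the higher ones mostly of males, but the highest again mostly of females. Within a sex the GC slope also went with that number. It was -1.91 to -0.664 in the 2[4]6 males labelled replicate 1, whose numbers were the lowest of the males. In the females labelled replicate 4, whose numbers were among the highest of the females, it was -0.113 to 1.47. Sex and the grouping by library-name number cannot be fully told apart, and the sex term was not tested with the number as a block.

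**Figure D5:**
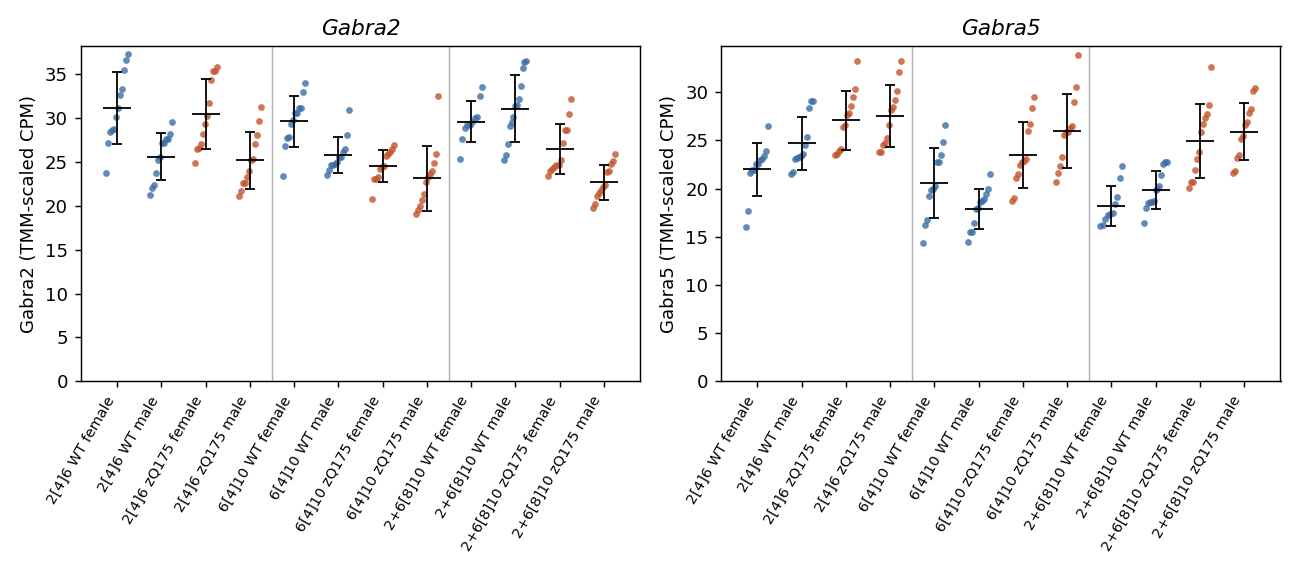
Gabra2 and Gabra5 in CPM after TMM scaling, by strategy, genotype and sex; points are mice and bars the mean ± SD. Gabra2 females of 2[4]6 have a median of 30.21 against 25.33 in males, while the Gabra5 values of the genotypes overlap within each sex in several pairs of groups, for example at 22.52 to 26.52 in WT and 23.88 to 29.51 in zQ175 females under NTC in 2[4]6.

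Between ages only the untreated mice of different strategies can be set side by side, and age and cohort cannot be told apart. From 2[4]6 to 6[4]10, Gabra4 fell in WT by 0.20 ± 0.06 (edgeR adjusted p = 0.017), and in zQ175 Gabra2 fell by 0.26 ± 0.09 (adjusted p = 0.031), Gabrb1 by 0.29 ± 0.08 (adjusted p = 0.0045) and Gabrb2 by 0.38 ± 0.09 (adjusted p = 0.0017). These are 1 and 3 of 8 members, where 16.4% and 19.4% of all genes were called. From 2[4]6 to 2+6[8]10, also 6 against 10 months, no member was called by edgeR in WT (7.57% of genes) or zQ175 (1.52%); before adjustment 3 and 2 lay under 0.05, and DESeq2 called 0 in both. With the length and GC slopes as covariates none of the 4 calls remained: Gabra2 stood at 0.02 (edgeR adjusted p = 0.92), while Gabrb2 in WT was now called at -0.24 (adjusted p = 0.004).

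The other genes of GABA signalling were taken from lists and given for untreated mice in the order 2[4]6, 6[4]10 and 2+6[8]10. Of all genes tested 15.3%, 19.2% and 17.1% rose and 17.2%, 17% and 18.3% fell there. With so few genes a list, the counts lie on both sides of these shares and only describe the lists. Of 11 other GABA-A subunit genes 7, 7 and 6 were tested, of which 1, 1 and 1 rose and 0, 1 and 2 fell. Among 8 tested genes for GABA synthesis, packaging, uptake and breakdown 1, 1 and 0 rose and 0, 3 and 2 fell. Of 7 tested genes of neuronal chloride transport 1, 0 and 0 rose and 0, 2 and 2 fell. Of 6 genes of GABA-B receptors, the metabotropic receptors for GABA, none rose and 2, 1 and 1 fell. The one that fell each time was Kctd16, an auxiliary subunit, by 0.32 ± 0.10, 0.59 ± 0.15 and 0.41 ± 0.10 (edgeR adjusted p = 0.013, 0.001 and 0.001).

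Of 18 tested genes of the inhibitory synapse scaffold and receptor trafficking, 3, 1 and 3 rose and 6, 7 and 6 fell, against the same shares of all genes, 15.3%, 19.2% and 17.1% rising and 17.2%, 17% and 18.3% falling. Insyn1, a protein of the inhibitory postsynaptic density, fell by 0.53 ± 0.06, 0.30 ± 0.05 and 0.39 ± 0.04 (edgeR adjusted p = 4.7e-09, 8.9e-06 and 6.2e-12). Shisa7, an auxiliary subunit of GABA-A receptors, fell by 0.24, 0.26 and 0.23, and Clptm1, which holds subunits back in the secretory pathway, by 0.30, 0.14 and 0.18. Rdx, which encodes radixin, the anchor of alpha5 receptors to the cytoskeleton, rose by 0.26 ± 0.03, 0.29 ± 0.04 and 0.27 ± 0.04 (adjusted p = 1.6e-08, 6.9e-07 and 8.7e-08). Rdx and Gabra5 thus both rose in untreated zQ175 mice of all 3 strategies.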

How the data were processed

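The data are RNA-seq of 143 striata, 1 per mouse, from polyA-selected libraries of RNA extracted with a Qiagen RNeasy kit, per the labels' protocols. The authors deposited expected counts per gene, made with RSEM on GRCm38 per the submitters' processing notes, and a second table named FPKM, per the file headers, whose deposited columns all sum to the same total, as TPM values do, and were used as TPM. The RSEM version, aligner, annotation and strand setting were not given in the sources used here. Of the nonzero expected counts 78.2% were whole, and all were rounded. Entries that name no gene (7, holding 5.91e-06% of counts) were left out. Ensembl identifiers were matched to symbols for 40254 of 41128 genes, and positions come from GENCODE annotation of GRCm38.

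Each strategy was fitted once over its 6 groups in R 4.3.3 with edgeR 4.0.16 (TMM scaling, filterByExpr, glmQLFit with robust estimation, glmQLFTest, a sex term), testing 15716, 15757 and 15506 genes; a single model of the 143 libraries, with a sex term in each strategy, gave the contrasts between strategies (16295 genes). P-values were adjusted by Benjamini-Hochberg over all genes tested, and the standard error is the log2 fold change divided by the root of F. Correlations used log2 CPM with a prior count of 2, with 100000 permutations within group and sex. The length and GC slopes were fitted per library over 13132 genes. The pipeline was tested on simulated counts. No 2 libraries were identical, and the replicate numbers in the labels were not treated as pairs. Alternatives were RLE size factors, no filter, no sex term, replicate and library-name blocks, a cortical marker covariate and only the groups compared. DESeq2 1.42.0 and leaving out each replicate number were also run. Chosen after seeing the data were the 2 slopes as covariates and leaving out the 3 libraries of lowest length slope. The library-name block was not run for the genotype comparisons, because almost every number held mice of a single genotype.

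The 8 genes and all lists were chosen with earlier results of these data known. The rule for named genes was the 8 genes, their 2 most alike genes, and up to 4 genes of each other list called in the same direction in all 3 strategies; for the other GABA-A subunits only counts are given. Counting error alone bounds single values, and depth differed by library.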

Additional observations from a re-analysis of the deposited data

Results flagged for a closer look

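Of the sets of values formed by 8 genes in 18 groups, 16 had 1 mouse far from the others of its group by Dixon's gap test, where chance alone marks about 1 in 20. The Gabrb2 sets include 3 that lie in 6[4]10 and hold the 3 libraries of lowest length slope: 34.65 CPM in an untreated zQ175 male (next value 74.6), 49.28 in an NTC zQ175 male (next 77.48) and 54.74 in an NTC WT male (next 74.92). Their length slopes were -6.65, -2.77 and -1.96 SD. Another low Gabrb2 value was 78.64 in a female zQ175 mouse given HTT-10150 in 2+6[8]10 (next 89.15).

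For Gabrd 3 mice of 6[4]10 stood low: 116 CPM in an untreated WT female (next 149.4), which was also the low mouse for Gabra4 at 147.5, 122.2 in a WT female given HTT-10150 (next 142.7) and 55.91 in a zQ175 male given HTT-10150 (next 84.9). That zQ175 male was the high mouse for Gabra3 at 58.21. Another mouse stood high for both Gabra3 (56.85) and Gabra5 (33.82), an untreated zQ175 male of 6[4]10 (next values 42.21 and 25.83).

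The remaining values were Gabra3 at 63.7 in a zQ175 female under NTC in 2+6[8]10, Gabra2 at 30.45 in a zQ175 female under HTT-10150 in 2+6[8]10 and at 34.04 in a WT female under NTC in 6[4]10, Gabra4 at 167.9 in an untreated WT male of 2[4]6, and Gabrb1 at 31.27 in a WT male under NTC in 2[4]6. The cause was not tested for any of them.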

How the results depend on the processing

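Gabrd fell in 9 of 9 genotype comparisons under each alternative run over all 9, with log2 fold changes from -0.83 to -0.61. The library-name block was not among these alternatives, as genotype was nearly nested in that number. Of the 72 comparisons of a member between genotypes 34 were called, and 31 to 38 under the alternatives other than leaving out mice: 37 with the replicate block and 38 with the slopes, of which 28 lower. Same-numbered mice of different groups had a mean r of 0.114, 0.052 and 0.033 in the 3 strategies. For mice of other numbers and the same sex it was lower, at -0.036, -0.017 and -0.01. The replicate numbers were not treated as pairs, and the block serves only as this alternative. With the slopes as covariates the members called went from 2 to 4 in zQ175 against WT under NTC in 2[4]6, from 1 to 0 for HTT-10150 against NTC in zQ175 of 2+6[8]10, and from 2 to 1 for sex in 2[4]6. Between ages the slopes moved the count from 3 to 0 for zQ175 of 6[4]10, from 0 to 2 for WT of 2+6[8]10 and from 0 to 1 for zQ175 of 2+6[8]10, and Gabra2 in zQ175 of 6[4]10 against 2[4]6 turned from -0.26 to 0.022 (edgeR adjusted p = 0.92). Without the 3 libraries of lowest slope the WT comparison of 6[4]10 with 2[4]6 called 2. With only the groups compared, untreated 2[4]6 called 5. For HTT-10150 against NTC in zQ175 of 2+6[8]10 the library-name block and DESeq2 called 2 each. The interaction in 2+6[8]10 called 1 with the cortical covariate, with only the groups compared and with DESeq2. Sex called 1 in 2[4]6 without the filter and 1 in 6[4]10 with DESeq2. Leaving out mice by number gave 1 to 4 called in untreated 2[4]6, 1 to 3 in untreated 6[4]10, 1 to 4 under NTC in 6[4]10, 1 to 3 under HTT-10150 in 2[4]6, 0 to 1 for the interaction in 2+6[8]10, 1 to 3 for sex in 2[4]6 and 0 to 1 in 6[4]10. The cause was not tested.

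Over all genes, HTT-10150 against NTC in zQ175 of 2+6[8]10 called 490 genes, 292 without the filter, 30 with the slopes, 808 with DESeq2 and 70 to 278 without the mice numbered 1, 2, 3 or 4. Sex in 2[4]6 called 2614 genes, 881 with the slopes and 478 and 616 without mice numbered 2 and 3. In 6[4]10 it called 348, 541 with the slopes and 44 and 122 without mice numbered 1 and 2, and in 2+6[8]10 325, 512 with the slopes and 136, 85 and 96 without mice numbered 1, 2 and 3. The zQ175 age comparison called 3166 genes in 6[4]10 and 781 with the slopes. The interaction in 2+6[8]10 called 82 genes, 27 without the filter, 54 without the sex term, 44 with the replicate block, 0 with the library-name block, 12 with the slopes, 220 with DESeq2 and 1, 0, 0 and 10 without mice numbered 1, 2, 4 and 5. NTC against untreated in WT of 2+6[8]10 called 28, and 2, 59, 63 and 79 with the library-name block, the slopes, only the groups compared and DESeq2, and 4, 4, 10 and 12 without mice numbered 1, 2, 3 and 4. The genotype effect between 6[4]10 and 2[4]6 called 136, and 21, 14, 57, 495 and 294 with the slopes, the 3 libraries left out, no filter, the replicate block and DESeq2; between 2+6[8]10 and 2[4]6 it called 11, and 22, 21, 34, 70 and 27. On the level scale, untreated Gabrd in 2[4]6 differed by -0.66 after TMM, -0.58 per library total and -0.57 as TPM, while the median of all genes tested moved from 0.01 to 0.09 and 0.08.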
